A study of Sus scrofa with 9 samples.

Results

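The actin genes described here encode the filaments under the oocyte membrane and the proteins that store, seed, cap and cut them. They comprise 10 listed genes: the thymosin TMSB10, the actins ACTB and ACTG1, the monomer binders PFN1 and CFL1, the Arp2/3 subunits ACTR2 and ACTR3, the nucleators SPIRE1 and FMN2, and the capping subunit CAPZB. They were matched by symbol in the deposited table, where 9 of the 10 were found among 23507 genes, and all 9 passed the filter on low counts. FMN2 was not analysed here. The list was chosen by a measured value, the higher TMSB10 level after heat, so the values of these genes in HS against control are a description, and no call among them there counts as a test.

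Polyadenylated RNA was sequenced from wild-type oocytes of the pig (Sus scrofa) at metaphase II (MII), where a mature egg is arrested, in 3 groups of 3 libraries. The HS + L-Asp group had L-Asp in the medium during the heat, at 0.5, 1.0 or 1.5 mmol/L, and which of these was sequenced is not stated. The HS group (heat stress) was cultured at 41.5 °C for 24 h and then at 38.5 °C, and the control group stayed at 38.5 °C. In every group oocytes matured for 44 to 48 h, surrounded by cumulus cells, and the labels give 25 oocytes per group.

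Library totals were 41693395 to 49008681 counts in HS + L-Asp, 46198885 to 53327419 in HS and 54965064 to 58361475 in control. Genes with a count numbered 15042 to 15509 in HS + L-Asp, 14730 to 15808 in HS and 17433 to 17685 in control. Mitochondrial genes held 5.3 to 9.47% of counts in HS + L-Asp, 3.09 to 14.5% in HS and 10 to 10.1% in control. The 3 control libraries were near copies of each other: the median squared difference between 2 libraries, relative to that of independent counts, was 79.4 to 85.6 in HS + L-Asp pairs, 108.8 to 118.9 in HS pairs and 5.20 to 5.24 in control pairs. If 1 fragment gave about 4 counts, the control pairs differed by little more than fragment sampling. They were therefore averaged and counted as 1 sample in the fits reported here, with all 9 libraries only as an alternative, and values for the control have no SD. Whether replicate libraries stem from different animals or cultures is not in the labels, and each p-value reflects the spread among these libraries, which may be technical. Low counts piled up at 4, so 3 fragments of 4 counts each, at most 0.284 CPM in any library, is the level a count of 0 allows, for counting error only. CPM are library-scaled counts, with sizes set by the trimmed mean of M values (TMM).

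Oocytes carry actin as a thin cortex below the membrane and as a cytoplasmic mesh, which in mouse oocytes is seeded by formin-2 together with Spire proteins and moves the spindle to the surface. Arp2/3, a complex of actin-related proteins, branches filaments at the cortex. Beta-thymosins such as TMSB10 and TMSB4X bind actin monomers and hold them out of filaments, whereas profilin hands monomers to formins. Bulk RNA from whole oocytes cannot separate fewer cells of a type from less RNA per cell. Oligo(dT) priming also means that a longer poly(A) tail and more RNA cannot be told apart.

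TMSB10 was higher than control in every heated library. TMSB10 (ENSSSCG00000008245, chromosome 3, 59776236 to 59777252, minus strand) measured 59.1, 68.1 and 49.8 CPM in the HS + L-Asp libraries, 65.5, 174 and 127.5 CPM in the HS libraries, and 18.9, 17.4 and 16.0 CPM in the control libraries. Every library of both heated groups lay above all 3 control libraries, and the lowest HS library lay within the HS + L-Asp range. Group means were 59.0 ± 9.14 CPM in HS + L-Asp and 122 ± 54.3 CPM in HS (SD, n = 3 each), against 17.4 CPM in the averaged control. HS replicate 2 had the highest level of the 9 libraries.

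In HS against control the log2 fold change of TMSB10 was 2.81, a 7.03-fold higher level, which is the value that the list was chosen on. For HS + L-Asp against HS it was -1.05 ± 0.33 (SE; edgeR's quasi-likelihood test, adjusted p = 0.738), a difference that did not pass. For HS + L-Asp against control it was 1.76 ± 0.51 (edgeR, adjusted p = 1), also not passing, with a 3.39-fold higher level. The HS libraries and the control enter these comparisons and also the one that chose the list, so they give no independent support. TMSB10 ranked by mean FPKM (the authors' fragment values scaled for transcript length and depth) at percentile 96.9 of the tested genes in HS + L-Asp, 98.6 in HS and 90.3 in control.

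**Figure D1:**
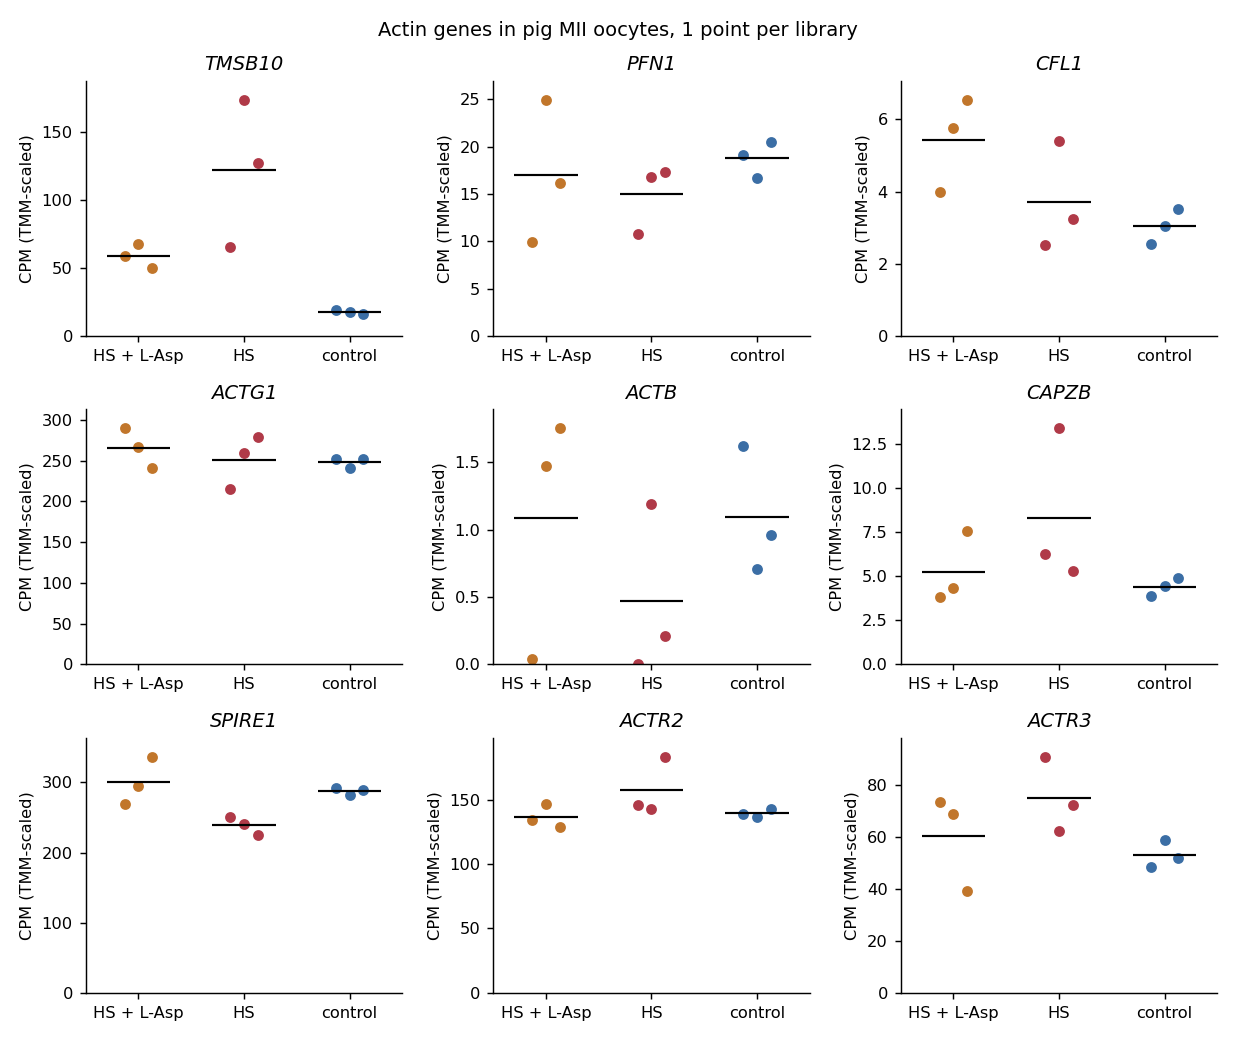
Level of each of the 9 genes (y axis, TMM-scaled CPM from 0) in the HS + L-Asp, HS and control libraries; each point is a library and each line a group mean. TMSB10 stands above control in all 6 heated libraries, whereas the points of ACTG1 lie in the same range in the 3 groups.

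Among the listed genes, the other monomer binders lay closer to their control levels than TMSB10 did. That is a description only, since the list was chosen on TMSB10. PFN1, profilin-1 (ENSSSCG00000017907, chromosome 12, 51961952 to 51965464, plus strand), measured 9.89, 24.9 and 16.2 CPM in HS + L-Asp, 10.8, 16.8 and 17.3 CPM in HS, and 19.2, 16.7 and 20.5 CPM in control. Its groups overlap when single control libraries are counted, although the averaged control of 18.8 CPM lay above all 3 HS libraries. CFL1, cofilin-1, which binds and severs filaments (ENSSSCG00000012974, chromosome 2, 6469254 to 6475035, plus strand), measured 3.99, 5.76 and 6.54 CPM in HS + L-Asp, 2.53, 5.40 and 3.23 CPM in HS, and 2.55, 3.05 and 3.50 CPM in control. All 3 HS + L-Asp libraries lay above the control libraries for CFL1, and the HS libraries overlapped both groups.

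The 2 cytoplasmic actins, whose proteins are near-identical and whose reads may be split between them, differed mainly in level. ACTG1, gamma-actin (ENSSSCG00000028355, chromosome 12, 1313641 to 1323217, plus strand), measured 289.6, 266.5 and 241 CPM in HS + L-Asp, 215.1, 259.5 and 279.3 CPM in HS, and 251.6, 240.8 and 252.6 CPM in control. The ranges overlap in all 3 pairs of groups. Its log2 fold change in HS + L-Asp against HS was 0.08 ± 0.19 (SE; edgeR, adjusted p = 0.98), which did not pass.

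ACTB, beta-actin (ENSSSCG00000007585, chromosome 3, 4082216 to 4090356, minus strand), had 2, 73 and 74 raw counts in HS + L-Asp, 0, 61 and 11 in HS, and 80, 37 and 50 in control. Its CPM were at most 1.75 in any library, and the library at 0 could hold up to the level of 3 fragments. ACTB made up 0.014 to 0.722% of the summed ACTB and ACTG1 CPM in HS + L-Asp, 0 to 0.456% in HS and 0.292 to 0.64% in control. The table thus assigns nearly all actin counts to ACTG1, and at these depths no group difference of ACTB was detectable.

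The Arp2/3 subunits ACTR2 and ACTR3 had their highest mean in HS, with ranges that overlapped HS + L-Asp. ACTR2 (ENSSSCG00000008358, chromosome 3, 76691283 to 76728918, minus strand), one of the complex's actin-related subunits, measured 134.5, 146.7 and 128.4 CPM in HS + L-Asp, 145.9, 142.9 and 183.2 CPM in HS, and 139.1, 136.2 and 142.9 CPM in control. Its partner ACTR3 (ENSSSCG00000015710, chromosome 15, 20104812 to 20166424, plus strand) measured 73.4, 68.9 and 39.1 CPM in HS + L-Asp, 90.7, 62.2 and 72.2 CPM in HS, and 48.4, 58.7 and 51.9 CPM in control. The averaged control, 139.4 CPM for ACTR2 and 53.1 CPM for ACTR3, lay below all HS libraries, while the lowest HS library and the highest control library of ACTR2 were both at 142.9 CPM.

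SPIRE1, which nucleates filaments together with formins (ENSSSCG00000039769, chromosome 6, 96934227 to 97114587, plus strand), measured 270, 294.5 and 336.5 CPM in HS + L-Asp, 250.8, 241 and 225.8 CPM in HS, and 292, 282.3 and 289.7 CPM in control. The HS libraries lay below all libraries of both other groups in CPM. In HS + L-Asp against HS its log2 fold change was 0.33 ± 0.185 (SE; edgeR, adjusted p = 0.757), which did not pass, and in FPKM its HS libraries overlapped the control. CAPZB, a subunit of the protein that caps filament ends (ENSSSCG00000003493, chromosome 6, 77780682 to 77912617, minus strand), measured 3.83, 4.37 and 7.60 CPM in HS + L-Asp, 6.26, 13.4 and 5.33 CPM in HS, and 3.87, 4.44 and 4.93 CPM in control. Its HS libraries lay above the control libraries, by a small margin for replicate 3, and overlapped HS + L-Asp. No member overlaps another gene in the table.

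In HS against control, 6 of the 9 genes had a log2 fold change above 0, with a median of 0.17, against 50.1% of the 15012 tested genes with a median of 0.00. The averaged control lay below all HS libraries for 4 genes (TMSB10, ACTR2, ACTR3 and CAPZB) and above them for 2 (PFN1 and SPIRE1), where 17.3% and 25% of all genes did so, 42.2% in either direction. No gene passed at an adjusted p under 0.05 (0% of all genes by edgeR), 3.86% had an unadjusted p under 0.05, and DESeq2 called 183 genes. Because the rule used this contrast, these shares are a description.

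Of the 9 genes, 0 passed in HS + L-Asp against HS (edgeR), where 0% of all genes passed. TMSB10 was the 1 gene with an unadjusted p under 0.05, which 6.61% of all genes had. DESeq2 called 0 of the 9, and 179 of the 22184 genes in its fit. Fold changes above 0 were seen for 5 of the 9 genes, with a median log2 of 0.08, against 49% of all genes. SPIRE1 alone did not overlap between the groups, higher in HS + L-Asp, where 6.31% of all genes lay wholly higher, 5.54% wholly lower and 11.9% in either direction. The remaining log2 fold changes ran from -0.66 for CAPZB to 1.22 for ACTB, where ACTB had a standard error of 1.94.

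Comparing HS + L-Asp with control, 0 of the 9 genes passed (edgeR), 1 (TMSB10) had an unadjusted p under 0.05, and DESeq2 called 0. Of all genes, 0% passed and 3.22% had such a p. Fold changes above 0 were seen for 6 of the 9 genes, with a median log2 of 0.10, against 50.5% of all genes. TMSB10 and CFL1 lay wholly above the control, where 19% of all genes lay higher, 26% lower and 45% in either direction. CFL1 had a log2 fold change of 0.84 ± 0.83 (SE; edgeR, adjusted p = 1).

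Levels per length were compared in FPKM. Counts and FPKM imply lengths of 547 bases (TMSB10), 1045 (PFN1), 2381 (ACTG1), 6346 (ACTB), 7420 (ACTR3) and 8559 (CAPZB). The order below depends on these lengths, which were not checked. In HS + L-Asp the order was led by ACTG1 at 111.7 ± 11.2 FPKM and TMSB10 at 108 ± 17.3 FPKM (SD, n = 3), whose ranges overlapped, followed by SPIRE1 at 47.1 ± 4.83. In HS the order was led by TMSB10 at 232 ± 117.5 FPKM and ACTG1 at 108 ± 16.6, again overlapping, and then SPIRE1 at 38.3 ± 3.90. In control ACTG1 led at 95.8 FPKM, SPIRE1 followed at 41.4 and TMSB10 at 29.2, without overlap of neighbours. ACTR2, PFN1, ACTR3, CFL1, CAPZB and ACTB came below them in HS + L-Asp and control, with PFN1 overlapping both ACTR2 and ACTR3 in HS + L-Asp. In HS the order was the same but for CAPZB above CFL1, 2 genes whose ranges overlapped, as did those of PFN1 and ACTR3. ACTB was last in every group.

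**Figure D2:**
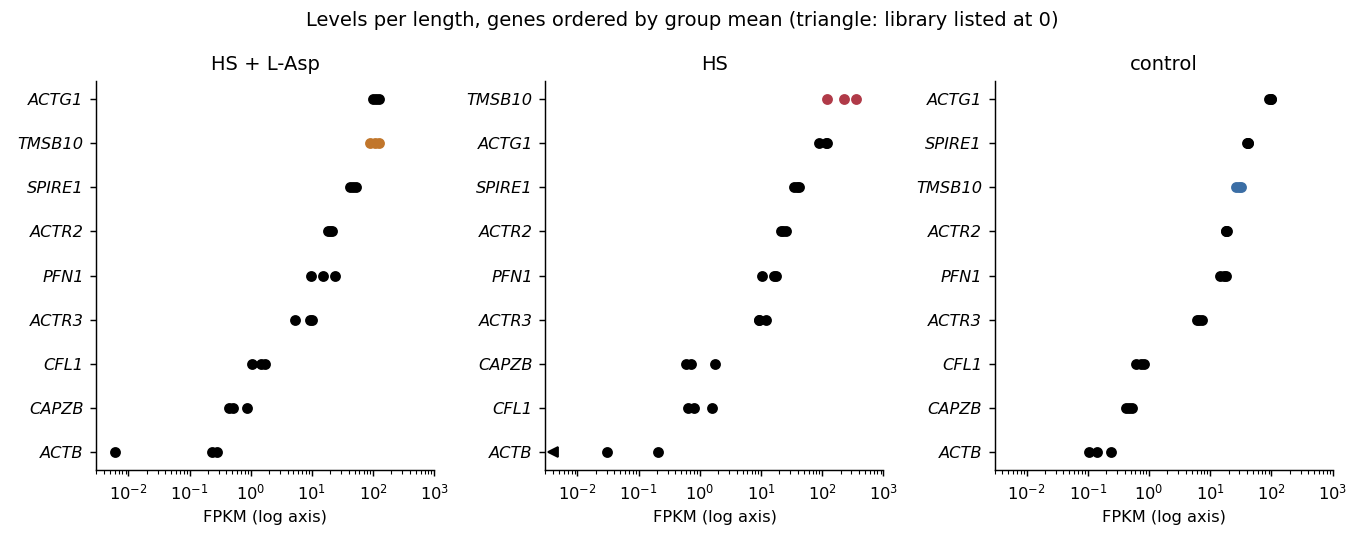
FPKM of the 9 genes (x axis, log scale) in each library, ordered down the page by group mean; coloured points mark TMSB10 and the triangle marks the HS library with ACTB listed at 0. TMSB10 stands at the top or next to it in the heated groups and below SPIRE1 in control.

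Within each library TMSB10 was also set against ACTG1 and against TMSB4X, thymosin beta-4, its paralog. The FPKM ratio of TMSB10 to ACTG1 was 0.888, 1.11 and 0.899 in HS + L-Asp, 1.33, 2.91 and 1.99 in HS, and 0.327, 0.314 and 0.275 in control. These ratios did not overlap between any pair of groups, a description only, since the list was chosen on TMSB10. The FPKM of TMSB10 alone overlapped between HS and HS + L-Asp, and HS replicate 1 had the lowest ACTG1 level, 89.24 FPKM. TMSB10 had 17.4, 22.3 and 18.8% of the TMSB4X FPKM in HS + L-Asp, 14.8, 40.5 and 49.5% in HS, and 7.02, 6.43 and 6.15% in control. HS replicate 1 lay below all HS + L-Asp libraries in that percentage. The sum of both thymosins relative to ACTG1 was 5.98, 6.10 and 5.68 in HS + L-Asp, 10.3, 10.1 and 6.0 in HS, and 4.99, 5.19 and 4.75 in control, with HS replicate 3 in the range of HS + L-Asp. TMSB4X was chosen here after its values were seen.

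**Figure D3:**
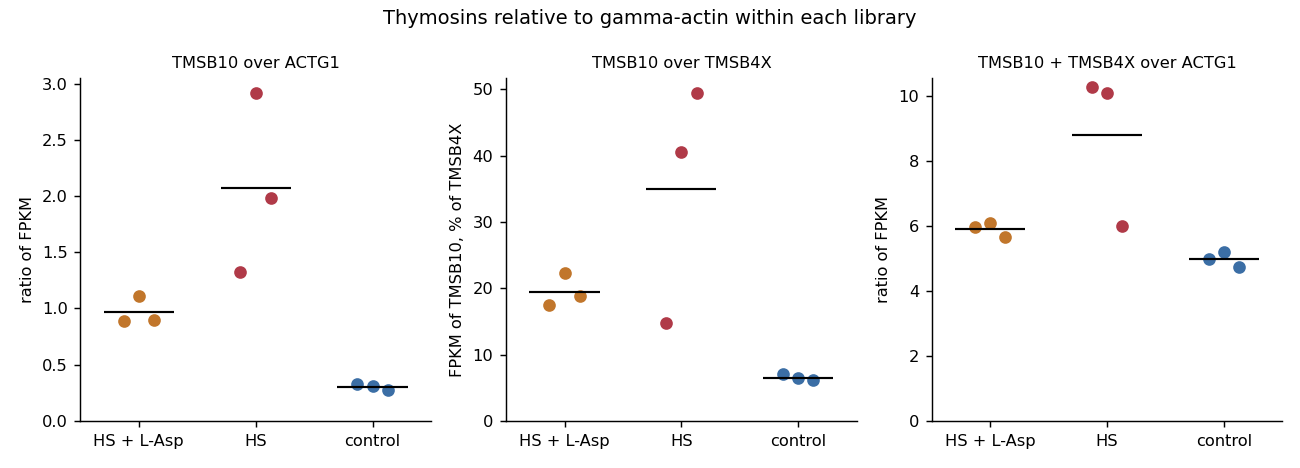
Ratios of deposited FPKM within each library (y axes from 0): TMSB10 over ACTG1, TMSB10 as a percentage of TMSB4X, and both thymosins over ACTG1, with 1 point per library and lines at the group mean. The TMSB10 to ACTG1 ratio is at least 1.33 in HS, at most 1.11 in HS + L-Asp and at most 0.327 in control.

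The wider actin machinery was described through 85 genes in 9 role lists, of which 80 were in the table and 78 were tested. In HS against control, 42 of the 78 lay above 0, with a median log2 fold change of 0.07. The averaged control was below all HS libraries for 12 genes and above them for 18, which set beside 17.3% and 25% of all genes is close to the background. No list gene passed (edgeR), and 2 had an unadjusted p under 0.05, beside 3.86% of all genes. DESeq2 called 1 of the 78, TPM4, and 183 genes in all. For HS + L-Asp against HS, 36 of the 78 lay above 0 (median log2 of -0.04). Of these 78, 6 lay wholly higher and 3 wholly lower, beside 6.31% and 5.54% of all genes. By edgeR 0 passed and 4 had an unadjusted p under 0.05, beside 6.61% of all genes, and DESeq2 called 0 of the 78 and 179 genes in all. Set against control, HS + L-Asp had 38 list genes above 0 (median log2 of -0.01), with 14 wholly higher and 16 wholly lower, beside 19% and 26% of all genes. There 0 passed (edgeR), 3 had an unadjusted p under 0.05, beside 3.22% of all genes, and DESeq2 called 1 of the 78 and 64 genes in all. CAPG had no control count, and with it at its bound the list medians were the same.

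By role in HS against control, 6 of 8 monomer binders lay above 0 (median log2 of 0.43) and 8 of 10 tropomyosin and myosin genes did (0.42), and 2 of 7 Arp2/3 complex genes did (-0.32). In HS + L-Asp against HS, 2 of 8 monomer binders lay above 0 (median log2 of -0.26), 4 of 10 tropomyosin and myosin genes did (-0.06), and 4 of 7 Arp2/3 complex genes did (0.13). Against control, HS + L-Asp had 7 of 8 monomer binders above 0 (median log2 of 0.15), 6 of 10 tropomyosin and myosin genes (0.18), 1 of 7 Arp2/3 complex genes (-0.17) and 6 of 8 capping and severing genes (0.32). In the same comparison 4 of 12 Arp2/3 activators (-0.05) and 2 of 8 formins (-0.11) lay above 0. Cross-linkers had 4 of 8 above 0 (0.04) and ezrin family linkers 0 of 3 (-0.48). Among other lists in HS against control, 4 of 12 Arp2/3 activators (median log2 of -0.10) and 3 of 8 formins (-0.09) lay above 0. Capping and severing had 5 of 8 genes above 0 (0.16) and cross-linkers 4 of 8 (-0.06). Membrane linkers of the ezrin family had 1 of 3 (-0.27). In HS + L-Asp against HS these lists had, in the same order, 8, 2, 4, 5 and 0 genes above 0. Each of these role lists had 0 genes passing the adjusted test in each comparison (edgeR), beside the unadjusted and DESeq2 counts given for the whole list. Per length, the most abundant list gene was DSTN, destrin, a relative of cofilin that binds actin monomers, at 1459 ± 200.7 FPKM in HS + L-Asp and 1544 ± 115.9 FPKM in HS (SD, n = 3 each), against 1171 FPKM in control. TMSB4X followed at 554.4 ± 72.9 FPKM in HS + L-Asp and 708 ± 222 FPKM in HS, against 446.8 FPKM in control. DSTN and TMSB4X were picked out after their values were seen, and TMSB10 stood below both in every group.

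**Figure D4:**
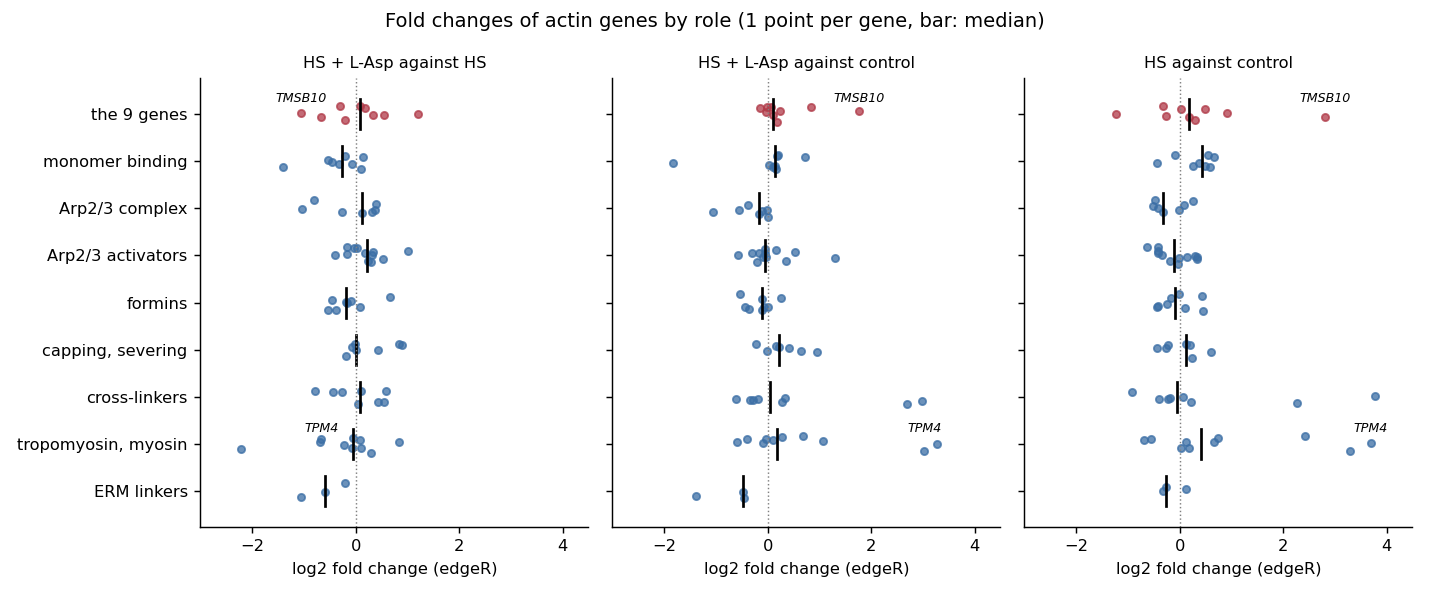
log2 fold change (x axis, edgeR) of the 9 genes and of 8 role lists in the 3 comparisons, 1 point per gene and a bar at the median; CAPG, with no control count, is left out of the plot and of its list's median. In both comparisons with control TMSB10 lies farthest to the right of the 9 genes, at 2.81 in HS and 1.76 in HS + L-Asp, and TPM4 lies at 3.69 and 3.03.

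TPM4, tropomyosin-4, which coats filaments (ENSSSCG00000013849, chromosome 2, 61453725 to 61476781), measured 9.75, 13.9 and 3.67 CPM in HS + L-Asp, 11.6, 14.1 and 17.5 CPM in HS, and 1.42, 1.32 and 0.597 CPM in control. Its log2 fold change was 3.69 ± 0.87 in HS against control (SE; edgeR, adjusted p = 0.472; DESeq2, adjusted p = 0.000377) and 3.03 ± 0.84 in HS + L-Asp against control (edgeR, adjusted p = 1; DESeq2, adjusted p = 0.0244). All 6 heated libraries lay above all control libraries. TPM4 was named for its small p, and its mean reaches the minimum of 10 CPM through the HS libraries, so these p-values are not free of that choice. MYL12A and MYL12B, neighbouring regulatory light chains of non-muscle myosin, are near-identical and can share reads, so their separate values are uncertain. MYL12A measured 97.4 to 145.8 CPM in HS, against 67.1 to 71.6 CPM in control, with a log2 fold change of 0.74 ± 0.34 (SE; edgeR, adjusted p = 1). MYL12B measured 186 to 244.7 CPM in HS, against 336 to 348.8 CPM in control, with a log2 fold change of -0.69 ± 0.26 (SE; edgeR, adjusted p = 1). PAK2, a protein kinase gene that overlaps another gene in the table, measured 226.9, 194.3 and 198.3 CPM in HS, against 146.1, 137.8 and 145.3 CPM in control, and had a log2 fold change of 0.53 ± 0.28 (SE; edgeR, adjusted p = 1).

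ARPC5 and ARPC5L, alternative small subunits of Arp2/3, were lower in all HS + L-Asp libraries than in any HS library, without passing the test. ARPC5 measured 12.9, 12.6 and 10.1 CPM in HS + L-Asp, 29.9, 17.8 and 25.4 CPM in HS, and 25.1, 22.5 and 26.1 CPM in control. ARPC5L measured 18.3, 17.2 and 14.6 CPM in HS + L-Asp and 36.0, 30.3 and 21.4 CPM in HS, and it overlaps 2 other genes. Their log2 fold changes in HS + L-Asp against HS were -1.04 ± 0.32 for ARPC5 and -0.81 ± 0.30 for ARPC5L (SE; edgeR, adjusted p = 0.738 each). ADD1, adducin-1, a cap and spectrin linker that overlaps 1 other gene, measured 35.6, 59.3 and 65.7 CPM in HS + L-Asp and 30.3, 35.3 and 24.1 CPM in HS. CTTN, cortactin, an Arp2/3 activator, measured 76.2, 87.9 and 116.9 CPM in HS + L-Asp and 55.9, 75.9 and 61.9 CPM in HS. Their log2 fold changes were 0.84 ± 0.30 for ADD1 and 0.54 ± 0.24 for CTTN (SE; edgeR, adjusted p = 0.738 each). Against control, HS + L-Asp had log2 fold changes of -1.05 ± 0.43 for ARPC5 and 0.96 ± 0.44 for ADD1 (SE; edgeR, adjusted p = 1 each). WASL, another Arp2/3 activator, measured 128.3, 119.7 and 113.7 CPM in HS + L-Asp, against 177.8, 178.6 and 182.5 CPM in control, and had a log2 fold change of -0.58 ± 0.27 in HS + L-Asp against control (SE; edgeR, adjusted p = 1).

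Genes whose level followed that of TMSB10 most closely were ranked by the mean absolute difference of centred log2 CPM over the 7 libraries, where the median of the 5759 genes ranked was 0.815. GNG11, a G protein gamma subunit, came first at 0.26, with 9.91, 10.9 and 6.04 CPM in HS + L-Asp, 16.5, 33.3 and 18.6 CPM in HS and 2.24 CPM in the averaged control. RPL6 followed at 0.303, RACK1 at 0.315, RPL23 at 0.32, SPAG8 at 0.323 and NME2 at 0.325. RPL6 and RPL23 are ribosomal protein genes with many near-identical copies, RACK1 is a scaffold on the ribosome, and NME2 is a nucleoside diphosphate kinase. Lying above the control in heated libraries follows from the likeness to TMSB10 by which they were picked.

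Markers of the cells around the oocyte were read beside TMSB10. The oocyte list (10 of 12 genes in the table, each with counts in every library) summed to 6354 to 8467 CPM in HS + L-Asp, 5809 to 6313 CPM in HS and 9167 to 9333 CPM in control. Without BMP15, a growth factor of the oocyte, HS + L-Asp summed to 4372 to 5891 CPM. HS then summed to 3375 to 4888 CPM and control to 4057 to 4111 CPM. All HS + L-Asp libraries thus lay above the control, whereas the HS range extended to both sides of it. ZP3, ZP4 and OOEP were higher than control in all heated libraries, and GDF9, BMP15 and MOS were lower. The cumulus and granulosa list (24 of 28 genes in the table) had 17 to 18 genes with a count in HS + L-Asp, 16 to 19 in HS and 15 to 17 in control. It summed to 1410 to 1475 CPM in HS + L-Asp, 1433 to 1828 CPM in HS and 1384 to 1428 CPM in control, most of it from RGS2. Without RGS2 its sums were 540.9 to 639.6 CPM in HS + L-Asp, 435.7 to 580.3 CPM in HS and 459.5 to 474.1 CPM in control, ranges that overlap between HS and each other group. Of the 24 genes, 7 lay above and 2 below every control library in all HS + L-Asp libraries, and 15 overlapped. In all HS libraries 6 lay above and 1 below, and 17 overlapped. Set against the averaged control, 19% of all tested genes lay wholly higher and 26% wholly lower in HS + L-Asp. In HS these shares were 17.3% and 25%. Of the 24 genes only 19 were tested, and the averaged control is easier to clear than every control library. The shares are thus not like for like with the marker counts. CYP19A1, STAR, GREM1, KITLG and BMPR1B overlapped control in both heated groups. FST, follistatin, was lower than control in both heated groups, and NR5A2 was at 0 in all HS + L-Asp libraries. CYP11A1, a steroid-making enzyme, measured 1.32, 7.80 and 0.69 CPM in HS + L-Asp, 5.98, 6.37 and 15.1 CPM in HS, and 0, 0 and 0.12 CPM in control. GJA1, a gap junction protein, measured 5.03, 1.60 and 7.03 CPM in HS + L-Asp, 6.97, 7.15 and 13.4 CPM in HS, and 0.668, 0.191 and 1.56 CPM in control. The transcription factor GATA6 measured 0.768 to 1.11 CPM in HS + L-Asp and 1.26 to 1.60 CPM in HS, with no control count. INHBA, an activin subunit, measured 0.385 to 0.853 CPM in HS + L-Asp and 0.608 to 1.03 CPM in HS, also with no control count. Of the defining markers, PTX3 was at 0 in all 9 libraries, and LHCGR had counts in 1 library. FSHR had 104 counts in HS + L-Asp replicate 2, 77 in HS replicate 3 and at most 1 in any other library. TNFAIP6 reached 102 counts in HS replicate 2 and 53 in HS + L-Asp replicate 2. Blood and immune, theca and stroma and endothelial lists summed to at most 5.10 CPM, 12.5 CPM and 42.6 CPM, in that order, in any library. CYP11A1 and GJA1 were highest in HS replicate 3, whereas TMSB10 was highest in HS replicate 2. BMP15 and the markers named one by one were chosen after their values were seen, and the part of these cell types in the TMSB10 difference was not tested.

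**Figure D5:**
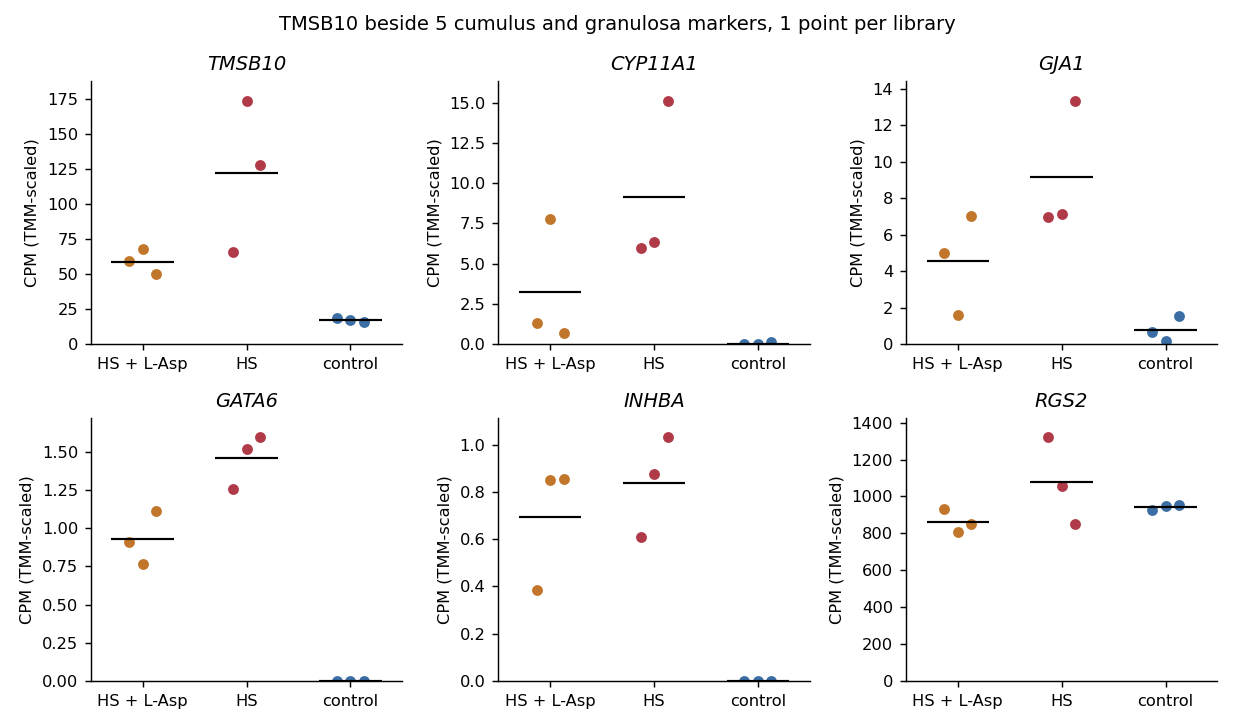
TMSB10 and 5 cumulus and granulosa markers (y axes, TMM-scaled CPM from 0) in each library, with lines at the group mean. CYP11A1, GJA1, GATA6 and INHBA are at or near 0 in control and above it in heated libraries, whereas RGS2 overlaps between control and HS. The 5 markers were picked from 24 list genes, of which 15 in HS + L-Asp and 17 in HS overlapped control.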

How the data were processed

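Oligo(dT)-primed cDNA was PCR-amplified and sequenced in pairs on an Illumina NovaSeq, per the labels' protocols, without strand marking or stated molecular identifiers. The deposited table gives whole-number counts and FPKM per library, per the file headers. Tools listed in the submitters' processing notes are StringTie 2.1.6, HISAT2 2.2.1, cutadapt 1.9, edgeR and DESeq2, with no roles. Genome build and counting method: not given in the sources used here. Coordinates are those of the table. Another 6 per-sample columns were left out. Symbols of 13893 genes are the table's own, 116 are from a list of gene names and 4 from the table's descriptions. The counts and, for levels per length, the authors' FPKM values were used as deposited.

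Genes were filtered with filterByExpr on 9 libraries (15012 kept), scaled by TMM and tested with edgeR 4.0.16 (R 4.3.3, glmQLFit, robust, 4 residual degrees of freedom), with adjustment (Benjamini-Hochberg) over all genes and a threshold of 0.05. The 3 control libraries were averaged, and the lone control was assumed to vary like the other groups. DESeq2 1.42.0, fitted to 22184 genes, was an alternative. A fit of all 9 libraries, no low-count filter, other size factors, a replicate block and leaving out each replicate were further alternatives. The model was tested on simulated data for HS + L-Asp against HS only, so comparisons with the averaged control were not examined that way. Besides the members, each comparison names the 4 role-list genes of smallest p with a mean of at least 10 CPM, and the 6 genes most like TMSB10 on centred log2 CPM (prior count 2). The result of 1 role list is not reported here. The members and lists were chosen with earlier results of these data known.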

Additional observations from a re-analysis of the deposited data

How the results depend on the processing

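With all 9 libraries as separate samples, edgeR called 433 genes (264 higher, 169 lower) in HS against control, 2 in HS + L-Asp against HS and 269 in HS + L-Asp against control. TMSB10 was the 1 member called, in both comparisons with control (edgeR, adjusted p = 0.0186 in HS + L-Asp against control, where the alternatives ran from 0.0175 to 1). Its calls in HS against control, here and below, are on the value that the list was chosen on and are no test. Of the role lists, 2 genes (TPM4 and MYL12B) were called in HS against control and 1 (TPM4) in HS + L-Asp against control. DESeq2 called 183 genes in HS against control, 179 in HS + L-Asp against HS and 64 in HS + L-Asp against control, with 1 member and 1 list gene in HS against control and 1 list gene in HS + L-Asp against control. Without the low-count filter 9 genes were called in HS against control, 2 in HS + L-Asp against HS and 3 in HS + L-Asp against control, with 1 member in HS against control. The cause was not tested. Leaving out each replicate gave 0 to 1 genes in each comparison with control, 0 to 3 in HS + L-Asp against HS, and 0 members and list genes.

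Same-numbered libraries deviated together with correlations of -0.024 to 0.052. These values do not decide whether the numbers pair the samples, since control libraries that are near copies can show little shared deviation. With the replicate block in the fit of 9 libraries, 378 genes were called in HS against control, 0 in HS + L-Asp against HS and 223 in HS + L-Asp against control, with 1 member and 2 list genes in HS against control and 1 member and 1 list gene in HS + L-Asp against control.

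The log2 fold change of ACTB in HS + L-Asp against control turned to 0.025 with DESeq2 and 0.029 with DESeq2 size factors, and ran from -0.526 to 0.562 when a replicate was left out. Without the low-count filter ACTG1 in HS against control was at -0.002. In that comparison ACTB was at -3.226 with the replicate block and -3.319 to -0.638 when a replicate was left out. Leaving out a replicate also turned the direction in HS against control for ACTG1 (-0.07 to 0.118) and CFL1 (-0.079 to 0.503), in HS + L-Asp against HS for ACTG1 (-0.02 to 0.168) and PFN1 (-0.179 to 0.457), and in HS + L-Asp against control for PFN1 (-0.515 to 0.13), ACTR2 (-0.074 to 0.012), SPIRE1 (-0.029 to 0.132) and CAPZB (-0.112 to 0.434). TMSB10 kept its direction, at 2.47 to 3.11 in HS against control, -1.35 to -0.71 in HS + L-Asp against HS and 1.66 to 1.87 in HS + L-Asp against control. The role-list genes were run under these alternatives after the data were seen, and TPM4 had an adjusted p of 0.000377 to 1 in HS against control and 0.0198 to 1 in HS + L-Asp against control. Averaging the control leaves its spread unmeasured, and few small p-values there do not show equal RNA.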

Other observations

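Outside the lists, NET1, a guanine nucleotide exchange factor, measured 110.3, 92.6 and 91.5 CPM in HS + L-Asp, 173.5, 225.1 and 119.2 CPM in HS, and 58.4, 56.0 and 57.8 CPM in control. The 3 groups did not overlap. Set against the averaged control, 42.2% of all genes in HS and 45% in HS + L-Asp did not overlap, in either direction. Between the heated groups 11.9% did not. NET1 passed in no comparison (edgeR, adjusted p = 0.563 in HS against control and 0.738 in HS + L-Asp against HS). A gene with no symbol, ENSSSCG00000005440, which the table annotates with actin monomer binding, measured 47.2, 59.8 and 45.9 CPM in HS + L-Asp, 73.6, 49.0 and 77.1 CPM in HS, and 120.1, 118.9 and 122.6 CPM in control. All 6 heated libraries lay below control, and the heated groups overlapped. Of all genes, 25% in HS and 26% in HS + L-Asp lay wholly below the averaged control. ENSSSCG00000005440 passed in no comparison (edgeR, adjusted p = 0.782 in HS + L-Asp against HS). Both genes were chosen after their values were seen.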
